A study of Mus musculus with 16 samples.

Results

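In sorted colonic epithelium, 10 genes of the intestinal brush border were followed: *Vil1*, *Pls1*, *Espn*, *Eps8*, *Myo1a*, *Myh14*, *Ezr*, *Cdhr2*, *Cdhr5* and *Ush1c*. They were chosen by name and not by a measured value, although earlier results of these data were known at the time. All 10 were found among the 22396 gene symbols of the deposited tables. RNA came from EpCAM+ cells sorted from the distal colonic mucosa of 16 mice and was sequenced as stranded, polyA-enriched libraries of single 75-base reads. *Tnfr2*-f/f controls carried floxed alleles of *Tnfr2* (*Tnfrsf1b*, a receptor for TNF) and no Cre, and *Vil1*::Cre;*Tnfr2*-f/f mice carried the same alleles with Cre driven by the *Vil1* promoter. Water was given to 4 controls and 5 mice of the Cre genotype, and 3 controls and 4 mice of the Cre genotype received 3% dextran sulfate sodium (DSS), an agent that injures the colonic epithelium, for 6 days. All were adults labelled as dissected on day 12 after the start of treatment. Per the paper, injured regions of the colon of DSS mice were separated from unaffected colon, and the sorted cells came from them. Sampled region and treatment therefore cannot be told apart. No group carried Cre without the floxed alleles, so an effect of Cre and an effect of the deletion cannot be told apart. The DSS mice were all female and were kept in cages c and d. Among the water mice, cage a held males and cage b females, and no cage held both treatments.

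The brush border is the carpet of microvilli on the apical surface of absorptive epithelial cells. Each microvillus has a core of parallel actin filaments bundled by villin (*Vil1*), plastin 1 or fimbrin (*Pls1*) and espin (*Espn*), with EPS8 at the tips. Myosin 1a and ezrin tie this core to the membrane, non-muscle myosin II lies in the terminal web beneath, and the protocadherins CDHR2 and CDHR5, held by the scaffold harmonin (*Ush1c*), link the tips of neighbouring microvilli. Villin is so typical of gut epithelium that its promoter is a standard driver of Cre there.

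Sequence upstream of the start site is shown for *Vil1*, because it is the gene whose promoter drives Cre, and for *Pls1* and *Cdhr5*, the abundant members at the high and low ends of the difference between DSS and water described further on. The sequences are from RefSeq on GRCm38.p6, run 5′ to 3′ on the strand of the gene and end before the first annotated base of the gene. *Vil1* (chr1:74409134-74409375, plus strand) is followed by *Pls1* (chr9:95845312-95845529, minus strand) and *Cdhr5* (chr7:141276787-141277036, minus strand), with capitals marking motif matches.
Vil1: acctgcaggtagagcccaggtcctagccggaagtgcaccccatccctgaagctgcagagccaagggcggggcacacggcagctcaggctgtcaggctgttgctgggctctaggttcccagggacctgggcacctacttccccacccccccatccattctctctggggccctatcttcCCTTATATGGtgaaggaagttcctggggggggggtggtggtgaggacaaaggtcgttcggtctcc
Pls1: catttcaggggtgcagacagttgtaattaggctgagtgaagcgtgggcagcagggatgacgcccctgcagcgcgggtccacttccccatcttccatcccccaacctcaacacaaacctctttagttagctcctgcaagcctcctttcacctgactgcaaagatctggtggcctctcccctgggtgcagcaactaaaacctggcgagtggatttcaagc
Cdhr5: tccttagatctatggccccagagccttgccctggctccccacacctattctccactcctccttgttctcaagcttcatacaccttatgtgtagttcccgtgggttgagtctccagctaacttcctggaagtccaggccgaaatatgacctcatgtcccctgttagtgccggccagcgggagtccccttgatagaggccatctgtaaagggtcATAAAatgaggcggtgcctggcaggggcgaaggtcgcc
Of the 10 members, 9 had a promoter entry. Windows of up to 250 bases before the start site were searched on both strands. Those of members were cut at the first annotated base of the gene, which left 164 bases for *Myo1a*, the shortest. The motifs were a TATA box (TATAAA, in 12.37% of all 32817 windows) and a CDX-type site (TTTAT, in 37.26%, which also lies within the reverse complement of TATAAA). An HNF1 site (in 0.00914%) and an HNF4 site (CAAAGTCCA, in 0.384%) were searched for too. These shares are over uncut windows of 250 bases, so members with a cut window had less sequence to match. The CArG box, the site of serum response factor, was added after the *Vil1* sequence had been read and occurs in 1.47% of windows. The *Vil1* match was a CArG box that begins 73 bases before the start site, and the *Cdhr5* match was a CDX-type site on the other strand that begins 38 bases before it. No other match to these letters lay in the windows of the 9 members, which says nothing about whether those factors act there.

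Values are TPM, read abundances corrected for transcript length and scaled to the library total, which can be compared between genes and were summed here over the listed transcripts of a gene. The DSS and water tables had been normalised separately, so genotypes were tested within a treatment only, and DSS and water are set side by side as a description. Where a scale common to both was needed, all 16 mice were rescaled once by the median of ratios over genes (size factors), and this is called rescaled TPM. The TPM of the targeted gene did not separate the labels. *Tnfrsf1b* was at 13.9 ± 2.06 TPM (SD, n = 4) in water controls and 11.8 ± 2.30 (n = 5) in water mice of the Cre genotype, and at 16.5 ± 4.95 (n = 3) and 18.4 ± 6.02 (n = 4) after DSS, with overlapping ranges. The Cre genotype is therefore called "labelled knockout". A deletion that leaves the transcript in place would not show in this value. The paper measured the deletion by other means. It reported less TNFR2 protein on EpCAM+ cells of the Cre genotype by flow cytometry, and loss of its expression by qPCR of sorted EpCAM+ cells.

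The 8 epithelial reference genes (such as *Epcam*, *Krt8* and *Cdh1*) were present in every library, at a summed 5887 to 10176 TPM after DSS and 6243 to 8553 TPM in water. The 14 leukocyte markers summed to 26.7 to 75.9 TPM after DSS and 969 to 1827 TPM in water, and the 6 goblet cell markers to 1136 to 7457 and 3655 to 6419 TPM. The 8 surface colonocyte markers summed to 907 to 1821 TPM after DSS and 1749 to 2687 TPM in water, the 6 progenitor and cycling markers to 178 to 293 and 110 to 176 TPM, and the 11 stromal, muscle and endothelial markers found to 123 to 543 and 236 to 800 TPM. No list had a gene at 0 in all mice of a group. In bulk samples, fewer cells of a type and less RNA per cell cannot be told apart. DSS control replicate 3 stood apart: its deviations from the DSS mean followed transcript GC content over 7279 genes (Spearman's rho 0.72), against -0.50 to 0.26 in the other 6 DSS libraries and -0.17 to 0.33 in the 9 water libraries. Its rank correlation with the other DSS libraries was 0.856 in the median, against 0.914 to 0.926 for the rest of the DSS libraries. That value is low only within DSS. The water libraries had medians of 0.849 to 0.901 with each other, lowest in water control replicate 3.

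*Vil1* (20 exons; chr1:74409376-74435559, plus strand, GRCm38), which encodes an actin-bundling and severing protein, was among the 445 most abundant gene symbols of every library. In water controls 1 to 4 its level was 141, 176, 176 and 135 TPM, and in the labelled knockouts 1 to 5 it was 180, 150, 164, 146 and 161 TPM. After DSS it was 169, 153 and 225 TPM in controls 1 to 3 and 185, 159, 162 and 166 TPM in labelled knockouts 1 to 4. The 4 groups overlapped, and the highest value was that of DSS control replicate 3. The rank of *Vil1* within the library ran from 313 to 445 in water and from 270 to 368 after DSS.

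*Pls1* (chr9:95752642-95845311, minus strand), the fimbrin that packs core filaments, was at 32.3, 26.4, 34.0 and 34.6 TPM in water controls and 27.3, 29.5, 29.6, 37.2 and 32.7 TPM in water labelled knockouts. The DSS libraries were at 70.8, 62.2 and 43.4 TPM in controls and 69.0, 61.5, 62.3 and 65.0 TPM in labelled knockouts. Every DSS value lay above every water value on the deposited scale, as was the case for 18.9% of all genes. On that scale all genes sat 0.32 higher after DSS in the median of log2(TPM + 1), and after rescaling the *Pls1* ranges overlapped. The lowest DSS value was that of control replicate 3. The median rank of *Pls1* was 970 after DSS and 1708 in water.

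*Espn* (chr4:152120331-152152371, minus strand), a bundler known for setting filament length, was a low-level member. It was at 5.04, 4.84, 7.45 and 5.89 TPM in water controls and 6.11, 5.11, 5.50, 5.90 and 4.93 TPM in water labelled knockouts. After DSS the controls were at 3.30, 2.32 and 8.66 TPM and the labelled knockouts at 2.73, 4.19, 3.51 and 3.31 TPM. Apart from control replicate 3, which had the highest value of all 16 mice, the DSS libraries lay below every water library.

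*Eps8* (chr6:137477245-137654876, minus strand), which caps and bundles actin at the microvillus tip, was at 22.6, 22.6, 30.5 and 24.3 TPM in water controls and 24.0, 22.4, 22.7, 22.3 and 25.1 TPM in water labelled knockouts. With DSS the level was 32.7, 32.3 and 30.7 TPM in controls and 40.2, 32.7, 33.2 and 35.2 TPM in labelled knockouts. On the deposited scale the DSS and water values did not overlap, although 30.7 TPM in DSS control replicate 3 was close to 30.5 TPM in water control replicate 3. The same held for 18.9% of all genes, and after rescaling the *Eps8* ranges overlapped.

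*Eps8* was the only member with more than 1 listed transcript, and the mean makeup of its sum differed between treatments, with overlapping shares. ENSMUST00000100841.8 made up 80.6% of the gene in the mean after DSS (52.0% to 94.1%, n = 7) and 63.0% in water (19.2% to 85.5%, n = 9). ENSMUST00000111878.7 averaged 2.18 ± 4.23 TPM (SD, n = 7) after DSS and 6.88 ± 4.43 TPM (n = 9) in water, and was listed at 0 in 3 DSS libraries and at 3.64e-06 TPM in control replicate 2. DSS control replicate 3 had 11.6 TPM of it, or 37.6% of the gene, and no other DSS library had over 1.88 TPM. The GC content of ENSMUST00000111878.7 was 50.5%, against 46.8% for ENSMUST00000100841.8, and the part of base composition in their shares was not tested. ENSMUST00000058210.12 made up 12.6% and 8.47% in the mean. At 0.79% to 9.32%, few of the 31-base words of these transcripts were found in no other transcript of the gene, so their shares rest on few distinguishing reads.

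**Figure D1:**
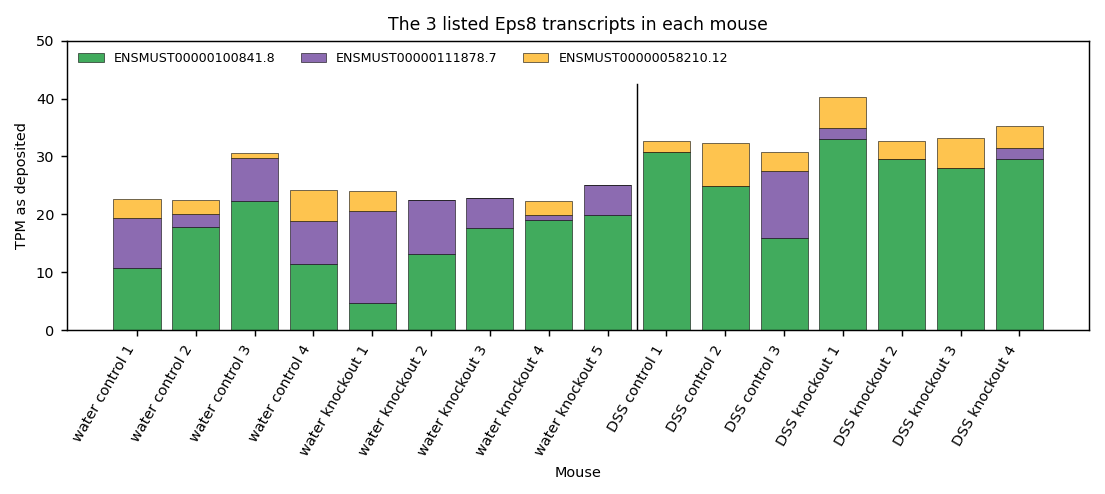
TPM of the 3 listed *Eps8* transcripts stacked for each mouse (x axis; knockout stands for labelled knockout), on the deposited scale (y axis). ENSMUST00000111878.7 (purple) is present in all 9 water libraries and reaches 11.6 TPM in a single DSS library, control replicate 3.

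*Myo1a* (27 exons; chr10:127705170-127720940, plus strand), the class I myosin that bridges core and membrane, was at 98.0, 94.7, 122 and 96.3 TPM in water controls and 121, 103, 97.9, 104 and 105 TPM in water labelled knockouts. In DSS mice it was at 145, 140 and 165 TPM in controls and 147, 128, 120 and 125 TPM in labelled knockouts. Of the 7 DSS values, 6 were above the highest water value, and the remaining value, 120 TPM, lay between the 2 highest water values and the rest.

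*Myh14* (chr7:44605803-44670843, minus strand), a heavy chain of non-muscle myosin II, varied more than any other member within a treatment apart from *Ush1c* in water. It was at 0.595, 27.2, 17.5 and 1.63 TPM in water controls and 0.434, 18.7, 0.0686, 7.44 and 4.56 TPM in water labelled knockouts. After DSS the controls were at 2.24, 2.24e-05 and 14.2 TPM and no labelled knockout exceeded 0.627 TPM. The coefficient of variation was 115% in water and 215% after DSS. The single listed transcript shares all of its 31-base words with other annotated transcripts of the gene, 8 of which are not listed, so its value depends on how reads were divided among them.

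*Ezr* (chr17:6738041-6782784, minus strand), which encodes ezrin, the linker between actin and apical membrane proteins, was the most abundant member in the mean of all 4 groups. It was at 215, 227, 283 and 201 TPM in water controls and 221, 206, 225, 236 and 201 TPM in water labelled knockouts. After DSS it was at 194, 184 and 271 TPM in controls and 237, 178, 211 and 194 TPM in labelled knockouts, within the span of the water values or slightly under it.

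*Cdhr2* (chr13:54701461-54736662, plus strand), a tip-link protocadherin, was at 62.8 to 93.8 TPM in water controls, 58.0 to 78.3 in water labelled knockouts, 51.5 to 86.6 in DSS controls and 52.3 to 61.5 in DSS labelled knockouts. *Cdhr5* (chr7:141269083-141276786, minus strand), its partner in the tip link, was at 65.9, 51.1, 110 and 75.7 TPM in water controls and 92.8, 54.7, 72.0, 82.1 and 69.5 TPM in water labelled knockouts. After DSS it was at 62.9, 42.4 and 85.6 TPM in controls and 40.2, 55.0, 46.0 and 41.9 TPM in labelled knockouts. Both had their highest DSS value in control replicate 3 and their highest water value in control replicate 3 of that table.

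*Ush1c* (chr7:46195350-46238503, minus strand), which encodes harmonin, was the lowest member in water: it was listed at 0 in 5 of 9 libraries and reached 1.62 TPM in control replicate 4. After DSS it was listed in every library, at 5.18, 0.513 and 1.18 TPM in controls and 3.09, 1.23, 1.13 and 3.12 TPM in labelled knockouts. Only 0.164% of the 31-base words of the listed transcript are found in no other transcript of the gene, and 8 annotated transcripts are not listed, so a value of 0 is not a measure of the whole gene. The listed transcripts of *Cdhr5* (1.43%) and *Espn* (1.87%) were almost as hard to tell from others of their gene, while those of *Vil1* (67.0%), *Myo1a* (78.6%), *Ezr* (84.4%), *Pls1* (86.0%) and *Cdhr2* (100%) were distinct.

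**Figure D2:**
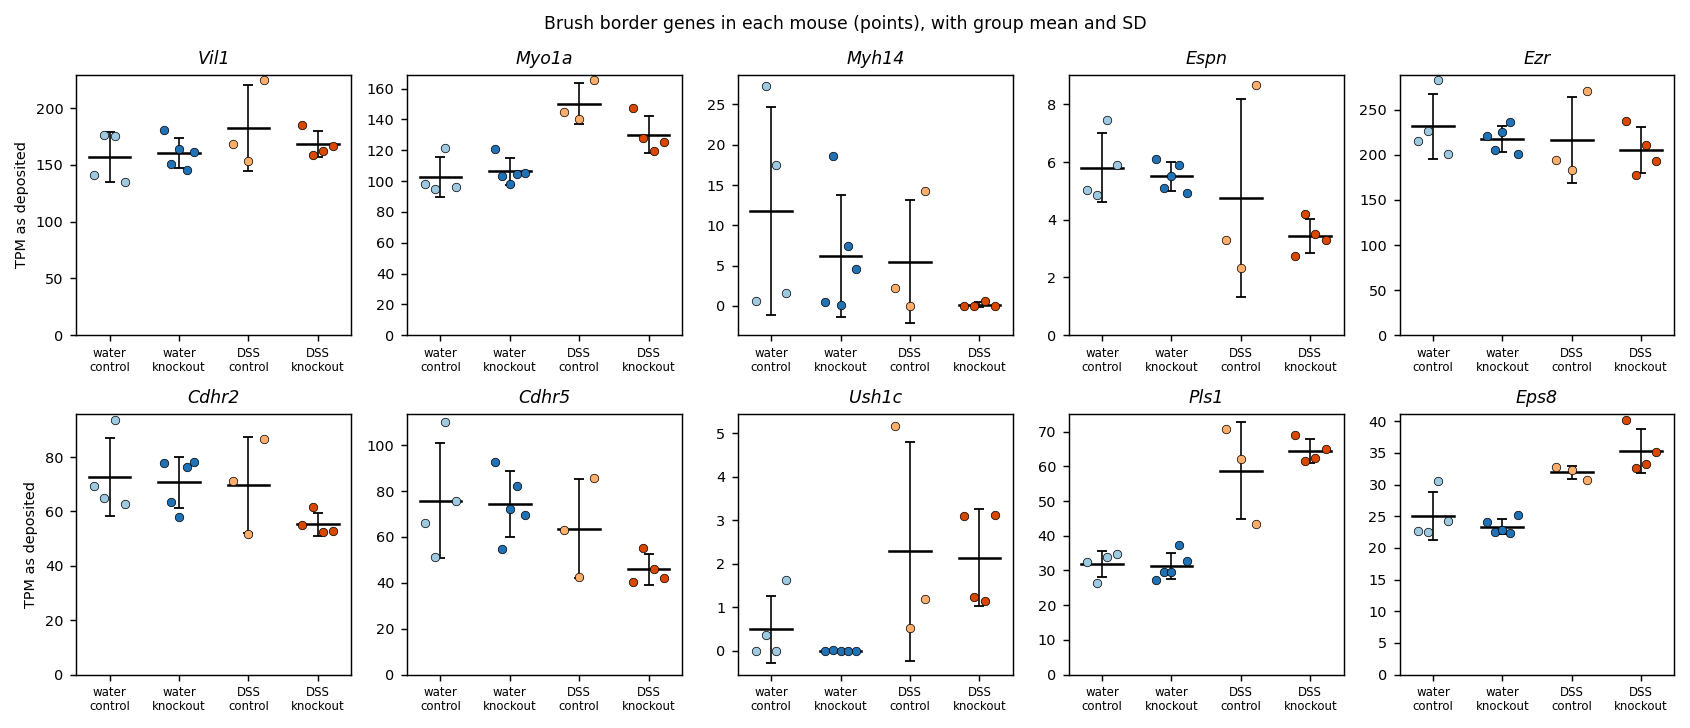
TPM as deposited (y axes, linear and not shared) of each brush border gene in each mouse (points) for the 4 groups on the x axes, with the group mean (horizontal line) and SD (error bar); knockout stands for labelled knockout. *Pls1* and *Eps8* lie higher in all 7 DSS mice than in all 9 water mice, as do 18.9% of all genes on this scale. In most panels the highest DSS point is control replicate 3, at 225 TPM for *Vil1*.

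In water controls the order of mean levels was *Ezr* (232 TPM), *Vil1* (157), *Myo1a* (103), *Cdhr5* (75.7), *Cdhr2* (72.8), *Pls1* (31.8), *Eps8* (25.0), *Myh14* (11.7), *Espn* (5.81) and *Ush1c* (0.492). The ranges of *Ezr* and *Vil1*, *Vil1* and *Myo1a*, *Cdhr2* and *Pls1*, and *Espn* and *Ush1c* did not overlap, and the other 5 neighbouring pairs did. The order of means was the same in water labelled knockouts, where *Cdhr5* and *Cdhr2*, and *Myh14* and *Espn*, were the pairs that overlapped. After DSS *Ezr*, *Vil1* and *Myo1a* were again the 3 highest. *Pls1* (64.5 TPM) stood above *Cdhr2* (55.4) and *Cdhr5* (45.8) in DSS labelled knockouts, and in the DSS controls it was level with *Cdhr5* (58.8 and 63.6 TPM, overlapping ranges).

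The comparison of genotypes asks whether loss of the receptor in Cre-expressing cells goes with another level of brush border genes. No member passed the test in either treatment. After DSS, 0 of the 10 members were called (limma on log2(TPM + 1), adjusted p under 0.05), beside 0.00918% of the 10899 genes tested (1 gene), and 0 had an unadjusted p under 0.05, beside 2.65% of all genes. In water, 0 of 9 members were called, beside 0.00905% of 11046 genes (1 gene), and 0 had an unadjusted p under 0.05, beside 5.28%. *Ush1c*, with a mean under 1 TPM in water, was not tested there. The range of every member overlapped between genotypes in both treatments, beside non-overlap in 3.68% of genes after DSS and 1.55% in water.

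For *Vil1* the difference, labelled knockout minus control, was -0.10 after DSS (95% interval -0.45 to 0.25, adjusted p = 1.00) and 0.04 in water (-0.22 to 0.30, adjusted p = 0.962), both in log2(TPM + 1). Its TPM averaged 182 ± 37.8 (SD, n = 3) in DSS controls and 168 ± 11.6 (n = 4) in labelled knockouts, with an exact two-sided permutation p of 0.629, and 157 ± 21.9 (n = 4) and 160 ± 13.5 (n = 5) in water, with a permutation p of 0.770. Left out in turn, no mouse moved the *Vil1* difference beyond -0.21 to 0.06 after DSS or -0.03 to 0.10 in water.

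Of the other abundant members, *Myo1a* was at 150 ± 13.4 TPM in DSS controls (n = 3) and 130 ± 12.0 in labelled knockouts (n = 4), a difference of -0.21 (95% interval -0.48 to 0.07; exact permutation p = 0.114). *Cdhr5* was at 63.6 ± 21.6 and 45.8 ± 6.60 TPM (-0.42, interval -0.96 to 0.12; exact permutation p = 0.171), and *Cdhr2* at 69.8 ± 17.6 and 55.4 ± 4.22 TPM (-0.30, -0.71 to 0.11; exact permutation p = 0.229). These 3 had lower means in the labelled knockouts, but DSS control replicate 3 had the highest value of each, and without it the *Myo1a*, *Cdhr5* and *Cdhr2* differences were -0.13, -0.18 and -0.13. The smallest permutation p that 3 against 4 mice allow is 0.0286, and 4 against 5 allow 0.00794.

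*Myh14* had the largest difference after DSS, -1.69 with an interval from -3.60 to 0.22, set by DSS controls 1 and 3 against values near 0 elsewhere (exact permutation p = 0.143). The remaining DSS differences ran from -0.23 for *Espn* to 0.16 for *Pls1*, and in water those of the 9 members tested ran from -0.68 for *Myh14* to 0.05 for *Myo1a*. In water, intervals for *Vil1*, *Myo1a*, *Ezr*, *Pls1* and *Eps8* all lay within -0.34 and 0.30. Leaving out DSS control replicate 2 gave an unadjusted p under 0.05 to *Myh14*, *Cdhr2* and *Cdhr5*, beside 5.40% of genes, and none was called (adjusted p = 0.830 for each). With a correction for GC content and length *Myh14* alone had an unadjusted p under 0.05, beside 4.39% of genes, with an adjusted p of 0.969.

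**Figure D3:**
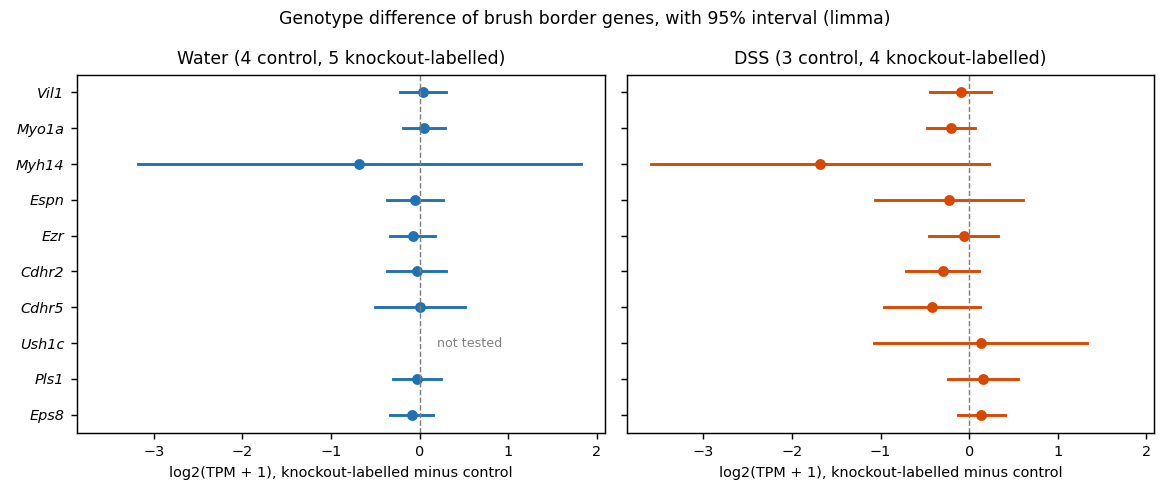
Difference between genotypes in log2(TPM + 1), labelled knockout minus control (x axis), for each brush border gene (y axis), with the limma estimate (point) and 95% interval (line) in water (left) and after DSS (right). Every interval spans 0; that of *Myh14* after DSS runs from -3.60 to 0.22.

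Cage was not balanced over genotype after DSS: cage c held control replicate 3 and labelled knockout 1, and cage d the other 5 mice. Within cage d the *Vil1* difference was 0.02 (2 controls, 3 labelled knockouts), and those of *Cdhr2* and *Cdhr5* were -0.13 and -0.12. In cage c, with 1 mouse of each genotype, they were -0.28, -0.64 and -1.07. *Myo1a* differed by -0.20 within cage d and -0.16 in cage c. Within the water cages *Vil1* differed by 0.06 (cage a) and 0.03 (cage b), and *Cdhr5* by -0.25 and 0.25.

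In single libraries many members deviated together. DSS control replicate 3 had the highest value of the 7 DSS mice for 7 of the 10 members, namely *Vil1*, *Myo1a*, *Myh14*, *Espn*, *Ezr*, *Cdhr2* and *Cdhr5*, and the lowest for *Pls1* and *Eps8*, beside the highest for 32.9% and the lowest for 24.6% of all genes tested after DSS. *Pls1* (42.7%) and *Eps8* (46.8%) had the lowest GC content of the members, and the 7 genes lay between 52.8% and 62.9%. The same library also had the highest goblet marker sum after DSS. Water control replicate 3 had the highest value of 9 water mice for 6 members (*Myo1a*, *Espn*, *Ezr*, *Cdhr2*, *Cdhr5* and *Eps8*), beside 13.2% of all genes, and the highest surface colonocyte marker sum, 2687 TPM. Its deviations did not follow GC content (rho -0.02), but their rho with transcript length was 0.24, in a span of -0.28 to 0.24 over the 9 water libraries. Its median rank correlation with the other water libraries, 0.849, was the lowest of that table. The part of GC content, of transcript length and of these markers in the member values was not tested.

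**Figure D4:**
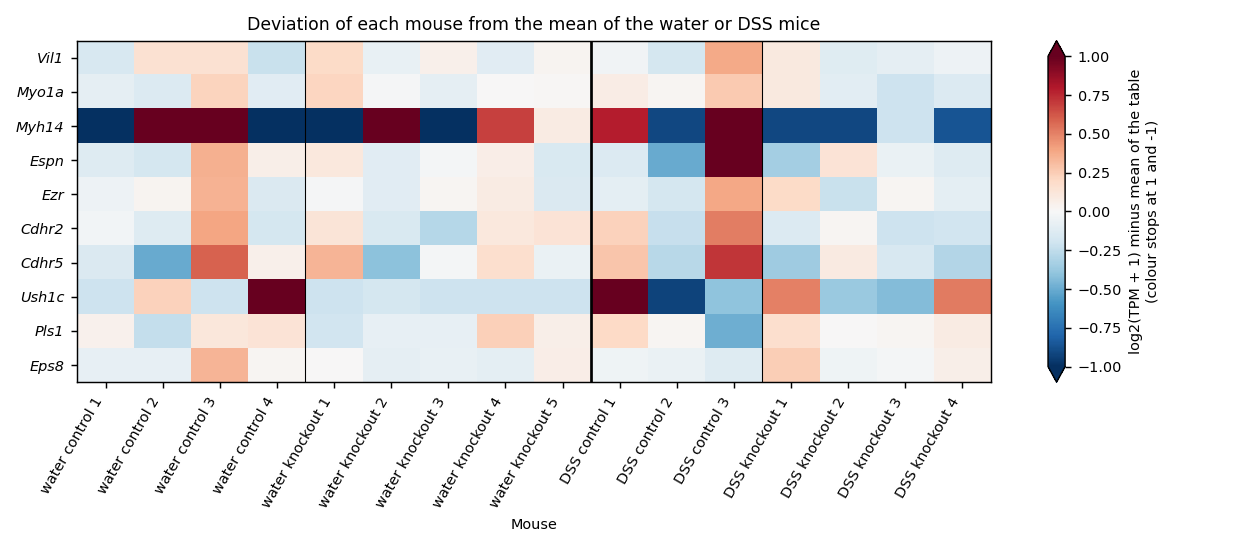
Deviation in log2(TPM + 1) of each mouse (columns; knockout stands for labelled knockout) from the mean of the 9 water or the 7 DSS mice, for each brush border gene (rows), with colour running from -1 (blue) to 1 (red) and larger deviations drawn at those limits. The columns of water control 3 and DSS control 3 are red in most rows, and in the latter *Pls1* and *Eps8* are blue.

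Between DSS and water, the members did not share a direction. In the controls, the difference of rescaled log2(TPM + 1), DSS minus water, was 0.50 for *Pls1*, 0.20 for *Myo1a*, 0.01 for *Eps8*, -0.15 for *Vil1*, -0.42 for *Cdhr2*, -0.46 for *Ezr*, -0.60 for *Cdhr5*, -0.67 for *Espn*, -1.13 for *Myh14* and 0.84 for *Ush1c*. Without DSS control replicate 3 the control differences were 0.74, 0.16, 0.07, -0.27, -0.55, -0.59, -0.80, -1.08, -2.09 and 1.01 in the same order. Other control mice also moved these values by over 1.5 times: without DSS control replicate 2, *Vil1* was at -0.06, *Cdhr2* at -0.25, *Cdhr5* at -0.36, *Espn* at -0.38 and *Myh14* at -0.27, without DSS control replicate 1 *Ush1c* was at 0.27, and without water control replicates 2 and 3 *Vil1* was at -0.09 each and *Myh14* at -0.44 and -0.64. *Myh14* was at -1.85 without water control replicate 1, *Cdhr5* at -0.40 without water control replicate 3, and *Eps8* lay on either side of 0 (-0.04 to 0.11). In the labelled knockouts the difference was 0.67, -0.07, 0.23, -0.29, -0.70, -0.45, -1.03, -0.84, -2.01 and 1.42 for the same genes. The signs were the same in both genotypes for 9 of the 10 members, with *Myo1a* near 0 in the labelled knockouts (-0.13 to -0.03 when each mouse was left out). The genotypes have separate mice, but both differences rest on the same rescaling. Both also fell with GC content over genes (Spearman's rho -0.43 in controls and -0.50 in labelled knockouts). The share of all genes with the same sign was not computed, so whether the agreement is particular to the members is not known. The median over the members was -0.28 in controls and -0.37 in labelled knockouts, beside 0.02 and 0.00 over all genes averaging 1 TPM or more. With both genotypes pooled it was -0.34, and that of the 8 epithelial reference genes was -0.41. The members were therefore not lower in the median than these general epithelial genes, of which *Epcam* and *Cdh1* lay above 0 (0.24 each). The surface colonocyte markers had a pooled median of -1.08, and the progenitor and cycling markers 0.33.

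The scale decided the sign for *Vil1*, and for *Myo1a* in the labelled knockouts (-0.07 rescaled, 0.29 as deposited). On TPM as deposited, where all genes sat 0.32 higher after DSS in the median, the difference over all mice was 0.13 for *Vil1*, 0.40 for *Myo1a*, 0.48 for *Eps8* and 0.95 for *Pls1*, against -0.23, 0.04, 0.13 and 0.60 after rescaling. With each mouse scaled to its 8 epithelial reference genes it was 0.10, 0.37, 0.45 and 0.92. *Ezr*, *Cdhr2*, *Cdhr5*, *Espn* and *Myh14* were below 0 on all 3 scales (*Cdhr5* -0.84, -0.49 and -0.52; *Cdhr2* -0.58, -0.23 and -0.26; *Ezr* -0.46, -0.10 and -0.13), and *Pls1* and *Ush1c* were above 0. Among all genes, *Pls1* stood at percentile 85.7 of the rescaled difference, *Vil1* at 35.6 and *Cdhr5* at 13.7, and without DSS control replicate 3 at 87.2, 34.6 and 13.1. Without that library the differences over all mice kept their signs on the 3 scales. Those that moved by over 1.5 times were *Vil1* as deposited (0.07), *Ezr* as deposited (-0.16) and *Myo1a* after rescaling (0.01).

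Few members separated the treatments in every mouse. After rescaling, *Ezr* was lower in all 7 DSS mice (149 to 219) than in all 9 water mice (219 to 311), by a margin of 218.8 against 219.1 rescaled TPM, which is 1 of 10 members beside 6.96% of all genes. No member was higher in all DSS mice, beside 4.52% of genes. Without DSS control replicate 3, *Espn*, *Ezr* and *Cdhr5* were lower in every DSS mouse (3 members, beside 11.9% of genes) and *Pls1* was higher, at 51.5 to 61.4 against 28.8 to 41.1 rescaled TPM (1 member, beside 12.2%). On the deposited scale *Pls1* and *Eps8* were higher in all DSS mice, beside 18.9% of genes, and none was lower, beside 4.16%. With epithelial scaling no member separated the treatments in either direction, beside 3.95% (higher) and 4.67% (lower) of genes.

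Sex and treatment were partly confounded, since the 4 water mice of cage a were male. Against the 5 water females alone, the rescaled difference of *Vil1* was -0.14 in controls and -0.26 in labelled knockouts, that of *Pls1* 0.56 and 0.59, and that of *Cdhr5* -0.38 and -1.05. *Ezr* alone was lower in all 7 DSS mice than in these 5 (beside 10.4% of genes) and no member was higher (beside 7.18%). Cage and treatment cannot be told apart.

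Ratios within a library do not depend on the scaling. *Myo1a* was at 0.735 to 0.914 of the *Vil1* level in the 7 DSS mice and at 0.538 to 0.716 in the 9 water mice, so the groups did not overlap, as was the case for 3.53% of genes in that direction. No member's ratio to *Vil1* was lower in all DSS mice, beside 5.31% of genes. *Pls1* was at 0.373 to 0.420 of *Vil1* in 6 DSS mice, at 0.193 in DSS control replicate 3 and at 0.150 to 0.256 in water. *Ezr* was 1.12 to 1.30 times *Vil1* after DSS and 1.22 to 1.62 times in water, and *Cdhr5* 0.218 to 0.380 and 0.290 to 0.627 times. *Espn* was at 0.0148 to 0.0385 and 0.0275 to 0.0436 of *Vil1*.

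The difference between DSS and water followed the base composition of transcripts. Over 7279 genes averaging 5 TPM or more, Spearman's rho across genes, which are not independent replicates, was -0.49 between the rescaled difference and GC content and 0.33 with transcript length. Split by GC content into 5 bins of equal size, the genes lowest in GC had a median difference of 0.43 and those highest in GC -0.39. The members followed the same order in part: *Pls1* (42.7% GC) was highest of the abundant ones and *Espn* (62.9%) and *Myh14* (60.8%) were low. *Ush1c* (56.6%), a member near 0 TPM, went against it with a difference of 1.16. With GC content and length fitted over all genes (20.0% of the variance), *Pls1* went from 0.60 to 0.23 and *Eps8* from 0.13 to -0.04, while *Cdhr2* (-0.50), *Cdhr5* (-0.54), *Ezr* (-0.36) and *Vil1* (-0.12) kept their sign. *Pls1* then stood at percentile 59.5 of all genes in place of 85.7. *Espn* went from -0.77 to -0.60 and *Myh14* from -1.64 to -1.49. Their percentiles hardly moved, to 14.2 from 15.1 and to 5.2 from 5.8. *Vil1*, *Ezr* and *Cdhr2* stood lower than before, at 32.5, 20.4 and 16.6 in place of 35.6, 24.5 and 20.2. *Cdhr5* stood higher, at 15.5 in place of 13.7. Without DSS control replicate 3 the rho with GC content was -0.53, and the fitted *Pls1* difference was 0.26.

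**Figure D5:**
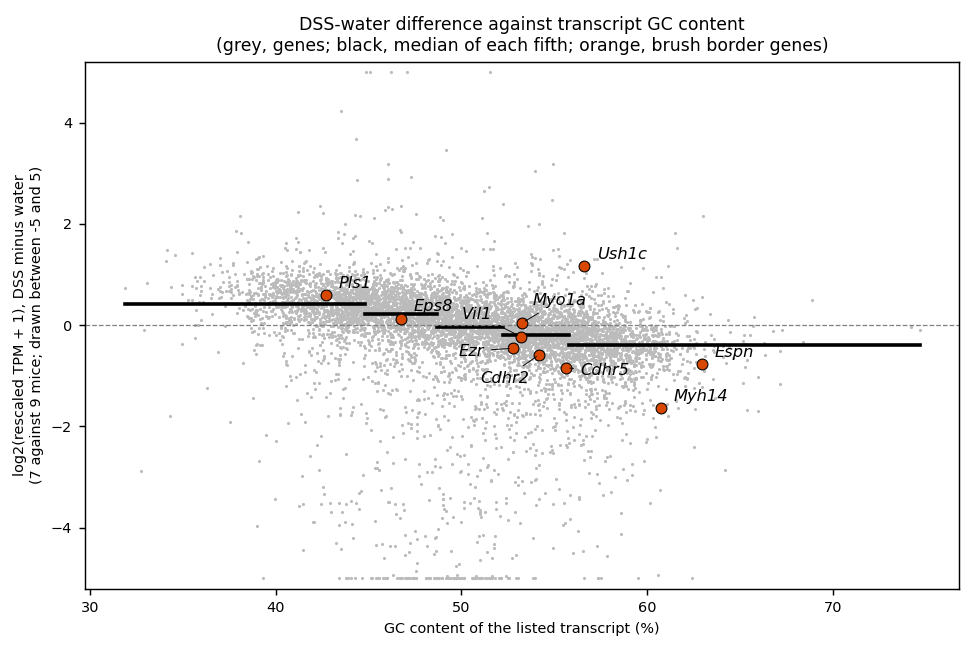
Difference between 7 DSS and 9 water mice in rescaled log2(TPM + 1) (y axis, values past -5 and 5 drawn at those limits) against GC content of the listed transcript (x axis, %; for *Eps8*, ENSMUST00000100841.8) for 7279 genes (grey) and the 10 brush border genes (orange), with the median of each of 5 equal bins of genes by GC content (black bars). The black bars step down from 0.43 to -0.39, and *Pls1* lies at the low-GC, high-difference end.

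The rest of the brush border was read from 5 lists of 50 genes. For genotype, 0 of 40 genes tested after DSS and 0 of 43 in water were called, and 1 of 40 after DSS (*Eps8l2*, a relative of *Eps8*) and 0 of 43 in water had an unadjusted p under 0.05, beside 2.65% and 5.28% of all genes. In the other tip-link complex genes, the motor *Myo7b* averaged 32.1 ± 5.52 TPM (SD, n = 7) after DSS and 24.1 ± 2.33 (n = 9) in water, the scaffold *Anks4b* 22.6 ± 3.23 and 14.9 ± 1.90, and the light chain *Calml4* 28.2 ± 11.8 and 28.0 ± 8.55. The ranges of all 3 overlapped between treatments.

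Of the 7 ERM proteins and apical scaffolds averaging 1 TPM or more, 3 were lower in all DSS mice after rescaling (*Slc9a3r1*, *Msn* and *Stk10*) and 1 was higher (*Slk*), beside 6.96% and 4.52% of all genes. As deposited *Slc9a3r1* and *Msn* overlapped between treatments, which left 1 lower and 1 higher (4.16% and 18.9% of all genes), and with epithelial scaling 1 was lower and 0 higher (4.67% and 3.95%). *Slc9a3r1*, the scaffold EBP50 that binds ezrin, was at 48.0 ± 9.55 TPM after DSS and 71.1 ± 5.21 in water, a rescaled difference of -0.93. *Slk*, a kinase that phosphorylates ERM proteins, was at 47.6 ± 6.47 and 21.3 ± 4.08 TPM (0.79). Moesin (*Msn*) was at 10.8 ± 5.55 and 28.1 ± 6.61 TPM (-1.73). Moesin is also abundant in leukocytes, whose markers were lower in all DSS mice for 10 of the 12 genes averaging 1 TPM or more, and the part of these cells in its value was not tested.

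Of 14 actin core and membrane-bending genes, 2 were lower in all DSS mice after rescaling (*Lcp1*, the leukocyte plastin, and *Pacsin2*) and 0 higher, beside 6.96% and 4.52% of all genes. The direction depended on the scale: as deposited 1 was lower (*Lcp1*) and 2 were higher (*Baiap2l2* and *Tmod3*), beside 4.16% and 18.9%, and with epithelial scaling 1 was lower and 1 higher, beside 4.67% and 3.95%. The actins *Actg1* (2233 ± 332 and 2238 ± 225 TPM) and *Actb* (1224 ± 189 and 1202 ± 112 TPM) and the *Eps8* relative *Eps8l3* (135 ± 31.4 and 137 ± 20.0 TPM) had overlapping ranges. Of 10 other myosins, 3 light chains were lower in all DSS mice after rescaling and 0 were higher, beside 6.96% and 4.52% of all genes: *Myl6* (389 ± 154 and 613 ± 65.3 TPM, -1.09), *Myl12b* (266 ± 28.5 and 298 ± 27.6 TPM, -0.52) and *Myl12a* (200 ± 15.8 and 216 ± 20.0 TPM, -0.46). On the deposited scale none of these 3 separated the treatments, and 2 other myosins (*Myo6* and *Myh9*) were higher in all DSS mice with 0 lower, beside 18.9% and 4.16%. With epithelial scaling 1 was higher and 1 lower.

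Among 8 apical enzymes and transporters, *Mgam*, the maltase-glucoamylase of the brush border membrane, was higher in all DSS mice, at 76.0 ± 8.28 TPM (64.4 to 90.9) against 26.0 ± 2.40 (23.0 to 29.3) in water, with a rescaled difference of 1.16. *Anpep*, aminopeptidase N, was lower in all DSS mice, at 0.74 to 3.98 TPM against 6.62 to 11.8 in water, a difference of -2.05. After rescaling this was 1 higher and 1 lower of the 8, beside 4.52% and 6.96% of all genes. Both separated the treatments on the deposited scale as well, beside 18.9% (higher) and 4.16% (lower) of all genes. With epithelial scaling 1 gene of this list was higher and 1 lower, beside 3.95% and 4.67%. Leukocyte markers were lower after DSS as well, and the part of leukocytes in the *Anpep* value was not tested. The meprins *Mep1a* (21.1 ± 9.52 and 34.8 ± 9.88 TPM) and *Mep1b* (23.3 ± 5.67 and 23.9 ± 5.46 TPM) overlapped. The median difference of the 5 lists ran from -0.92 for the scaffolds to 0.05 for the tip-link genes, beside 0.01 over all genes.

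The genes whose levels followed *Vil1* most closely from mouse to mouse were not brush border genes. By Pearson's r of deviations from the group means in log2(TPM + 1), over 16 mice and 4065 genes averaging 10 TPM or more in each table, they were *Samd4b* (0.94), *Lmnb2* (0.93), *Ubald1* (0.90), *Mob3a* (0.90) and *Arhgap27* (0.90). Their transcripts had a GC content of 54.5% to 59.6%, and without DSS control replicate 3 the values were 0.85 to 0.91. These points share libraries and their base composition, and the r is a description only.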

How the data were processed

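The authors sorted EpCAM+ cells of the distal colon, made stranded polyA libraries (single reads of 75 bases, per the labels), quantified them with kallisto and tested genotype with sleuth. The transcript release is not given in the sources used here; the submitters' processing notes name mm10. The authors deposited, for each treatment, a table of TPM per APPRIS principal transcript and mouse, so depth per transcript is unknown, and the TPM of a mouse sum to 487469 to 861109. The tables were scaled separately. Their columns of genotype p-values, q-values, mean log values and log2 ratios were not used. Of 29373 lines per table, 385 repeats were dropped, leaving 28988 transcripts, summed by symbol; no member symbol covered several Ensembl genes. All transcripts were found in GENCODE M21 (GRCm38), 27827 with the same version, which gave positions, GC content, lengths and 31-base words.

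Groups, cage and sex are from the labels, which give day 12 for all mice and 3% DSS; the paper's text gives a slightly different dose and places uninjured mice at the start of the experiment. Nothing says that mice of a cage are independent litters. Within each treatment, limma 3.58.1 (R 4.3.3, trended variance) compared the genotypes in log2(TPM + 1) for genes averaging 1 TPM or more, adjusted by Benjamini-Hochberg over all of these, and an adjusted p under 0.05 was a call; fold changes of low genes are understated by the added 1. The script was tested on simulated data. For each member the mice were also permuted exactly, two-sided (35 splits after DSS, 126 in water). Between tables no test was run; median-of-ratios factors were 1.13 to 1.24 for DSS and 0.905 to 0.940 for water. All 10 members are named; genes of the 5 other lists are named when called, separated or among the 3 highest in mean TPM of a list, and *Anpep*, *Stk10*, *Pacsin2*, *Lcp1*, *Eps8l2*, *Baiap2l2*, *Tmod3*, *Myo6* and *Myh9* were named after their values were seen. The members, lists and tests were chosen with earlier results of these data known. Alternatives were other pseudocounts, filters, scalings, one fit of all groups, cage and replicate terms, and leaving out each mouse; a GC content and length correction, water females only and the omission of DSS control replicate 3 from counts of separated members and from differences over all mice were chosen after seeing the data. Python 3.11.15, scipy 1.17.1 and matplotlib 3.10.9 were used.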

Additional observations from a re-analysis of the deposited data

Results flagged for a closer look

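Values far from the rest of their group were searched for in the 30 member-by-group sets with 4 or 5 mice. The gap of the highest or lowest mouse to its neighbour was set against the range of the group (Dixon's 95% limit), and 3 sets passed. Chance passes this limit in about 1 of 20 sets of normally distributed values. That rate does not hold for TPM near 0, as in the *Ush1c* and *Myh14* sets below. *Myo1a* in water control replicate 3 was at 121.7 TPM, against 94.7 to 98.0 TPM in the other 3 water controls. *Ush1c* in water labelled knockout replicate 2 was at 0.0198 TPM, against at most 3.7e-06 TPM in the other 4. *Myh14* in DSS labelled knockout replicate 3 was at 0.627 TPM, against at most 0.0311 TPM in the other 3. DSS control replicate 3 is in a group of 3, which is too small for this search.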

How the results depend on the processing

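No member was called under any setting, and the lowest adjusted p of a member over all settings was 0.792 (limma; *Myh14* in water). Over all genes, 1 gene was called after DSS and 1 in water. After DSS the count was 0 with a pseudocount of 0.1, with all genes above 0 TPM and with the GC content and length correction, and 0 to 3 when each mouse was left out. In water it was 0 with a pseudocount of 0.1 and with genes averaging 5 TPM or more, 4 with all genes above 0 TPM, 3 with all 4 groups in a single fit, and 1 to 2 when each mouse was left out. With the replicate number as a block the count was 0 in both treatments; the numbers do not pair the mice, since deviations of same-numbered mice correlated at -0.20 to -0.03 after DSS and -0.08 to 0.09 in water.

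Member differences changed sign in 26 of 150 refits without a mouse and in 5 of 149 others. In the main setting the interval of every member spanned 0. With the GC content and length correction that of *Myh14* after DSS did not (-3.13 to -0.039, unadjusted p = 0.0457 and adjusted p = 0.969 by limma). Without DSS control replicate 2 those of *Myh14*, *Cdhr2* and *Cdhr5* after DSS did not either (unadjusted p under 0.05 and adjusted p = 0.830 for each by limma). The replicate block gave *Ush1c* -0.024 after DSS. The GC content and length correction gave, in water, *Espn* 0.078, *Cdhr2* 0.033, *Cdhr5* -0.0067 and *Pls1* 0.065. With each mouse left out, the ranges that crossed 0 after DSS were -0.21 to 0.063 for *Vil1*, -0.55 to 0.22 for *Espn*, -0.17 to 0.11 for *Ezr*, -0.30 to 0.72 for *Ush1c* and -0.042 to 0.30 for *Pls1*. In water they were -0.032 to 0.095 for *Vil1*, -1.38 to 0.0013 for *Myh14*, -0.12 to 0.058 for *Espn*, -0.14 to 0.021 for *Ezr*, -0.094 to 0.097 for *Cdhr2*, -0.16 to 0.20 for *Cdhr5*, -0.11 to 0.020 for *Pls1* and -0.13 to 0.010 for *Eps8*. Without DSS control replicate 3 the differences after DSS were 0.063 for *Vil1*, 0.22 for *Espn*, 0.11 for *Ezr*, -0.032 for *Ush1c* and -0.042 for *Pls1*. *Myh14* fell under the minimum mean when that library was left out and was not refitted.

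The median DSS minus water difference of the members, -0.28 in controls and -0.37 in labelled knockouts, was 0.066 and -0.011 on TPM as deposited and 0.023 and -0.036 with epithelial scaling, where the scaling itself moves all genes upward after DSS by 0.28 to 0.32. Left out in turn, mice moved it to between -0.41 and -0.15 in controls and -0.43 and -0.32 in labelled knockouts. It was -0.29 and -0.37 with a pseudocount of 0.1, -0.20 and -0.37 with water females only and -0.21 and -0.27 with the GC content and length correction. TPM without counts gives no interval for reading depth, so members near 0, *Ush1c* and *Myh14*, are not read further.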
